A study of Mus musculus with 12 samples.

Results

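The stromal vascular fraction (SVF) of aged Pdgfrβ-KO mice was set against that of young control mice, to ask which genes of the old knockout differ from youth and which do not. Genes were compared if 4 or more of these 8 libraries had a normalised count of 10 or higher, which was 16370 of the 55536 genes listed. Of the listed genes, 32332 had a value above 0 in at least 1 of the 8 libraries.

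Each library came from the inguinal fat of 1 male mouse of mixed C57BL6/J-129SV background kept at room temperature. The 2-month control group had 4 mice of 2 months labelled wild type. The 12-month Pdgfrb-KO group had 4 mice of 12 months in which a tamoxifen-induced Sma-CreERT2 recombined floxed Pdgfrβ alleles and a Rosa26 reporter. A further 4 mice of 12 months, the 12-month controls, are also labelled wild type and are given beside the main comparison. The sources differ on these older controls, since the study's description of its old knockout comparison names the reporter line with Sma-CreERT2 and no floxed alleles as the control. Sma-CreERT2 acts in cells that express smooth muscle actin, so other Pdgfrβ-expressing cells of the SVF keep the receptor. Whether either control group carried Cre or received tamoxifen is not given in the labels. Age and genotype both differ between the 2 groups compared, and their parts, with those of Cre and tamoxifen if these differ too, cannot be told apart. In bulk RNA, fewer cells of a type and less RNA per cell cannot be told apart either.

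The SVF is the cell suspension left when floating adipocytes are removed from digested fat. It holds the progenitors that give rise to adipocytes, the pericytes and smooth muscle of vessels, endothelial cells, nerve sheath cells and resident immune cells. Pdgfrβ is a receptor tyrosine kinase that binds PDGF-BB and related dimers and is known for its role in pericytes and fibroblastic cells. In adipose tissue, ageing is known to bring more immune cells and a lower capacity of progenitors to form new adipocytes.

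The libraries of the 2 groups had similar deposited totals, between 19.62 M and 21.87 M, since the values had been scaled. The counts estimated to lie behind them ranged from 21.37 M to 24.84 M in the 2-month controls and from 13.79 M to 19.97 M in the Pdgfrβ-KO group. The highest of the latter, replicate 4, could be 2-fold larger, since its scaling factor was not fixed by the values, and the other 3 knockout libraries were the shallower ones. Gene length also moved with the groups. Among the genes tested, the median log2 difference between Pdgfrβ-KO and 2-month control went from 0.27 in the group with the shortest transcripts to -0.30 in the group with the longest, when genes were split into 5 groups of near equal size. Of the shortest group, 34.1% of genes were higher and 10.9% lower in Pdgfrβ-KO, against 8.3% and 42.7% of the longest group. Each gene's test between Pdgfrβ-KO and 2-month control was therefore repeated with the length trend of every library removed. The value is given where it changed the call of a named gene or moved a list's count by more than 1.5 times. The tests that involve the older controls were not repeated in this way, although the trend was present there too. From the shortest to the longest group, the median log2 difference went from 0.132 to -0.151 between Pdgfrβ-KO and the older controls. Between the older and the 2-month controls it went from 0.151 to -0.168.

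**Figure D1:**
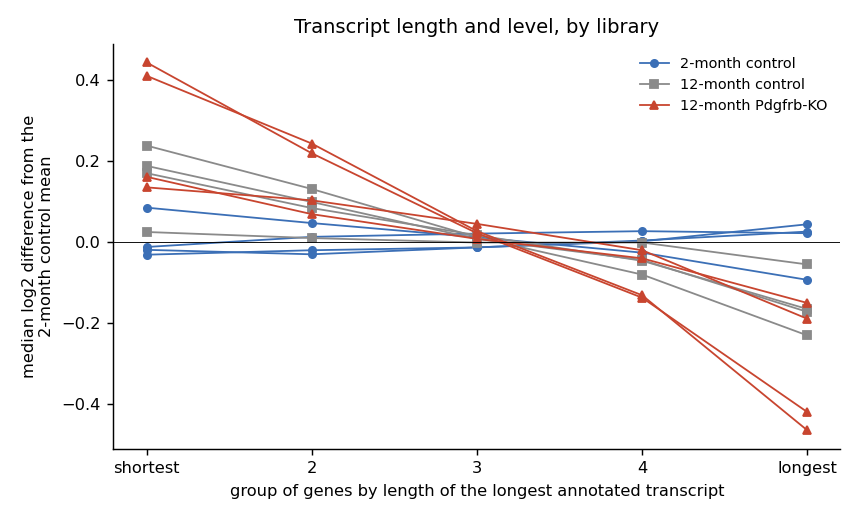
Median log2 difference of genes from the mean of the 2-month controls (y axis) in 5 groups of genes ordered by the length of the longest annotated transcript (x axis), with 1 line for each of the 12 libraries and colours for the 3 groups. Pdgfrβ-KO replicates 1 and 2 run from 0.44 and 0.41 in the shortest group to -0.42 and -0.46 in the longest, and the 2-month control lines stay between -0.09 and 0.09.

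Of the 16370 genes, 3674 were higher in Pdgfrβ-KO than in the 2-month controls (22.4%) and 3715 were lower (22.7%), so 7389 genes (45.1%) passed the test at an adjusted p under 0.05 by limma. At least 2-fold changes made up 1094 of the higher and 1151 of the lower genes. The 4 knockout libraries did not overlap the 4 young ones in 6673 genes (40.8%). For 5149 genes (31.5%) the 95% confidence interval of the difference lay wholly within 1.5-fold in either direction, so that a larger difference was not compatible with that interval. Of these, 4541 did not pass the test and 608 passed with a small difference. For 4440 genes neither statement could be made, because the test was not passed and the interval reached beyond 1.5-fold. With the length trend removed, 5791 of the calls (78.4%) were made again with the same sign, and 3 were made with the opposite sign. The shares of all genes, 22.4% higher and 22.7% lower, are the ones to set beside each list below.

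**Figure D2:**
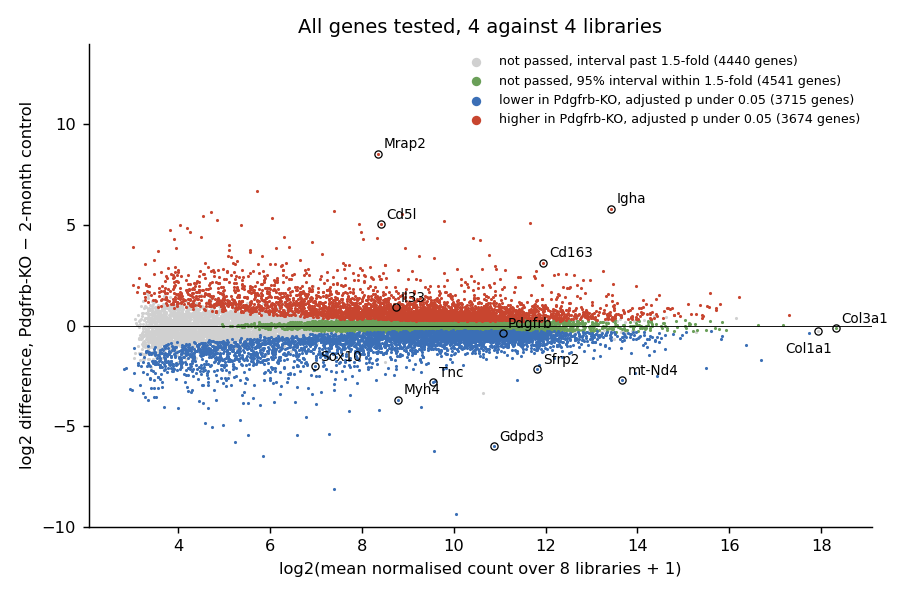
Each point is 1 of the 16370 genes tested, with its mean level over the 8 libraries on a log2 axis (x) and its log2 difference between the 4 Pdgfrβ-KO and the 4 2-month control libraries (y). Red and blue points passed the test (3674 higher, 3715 lower), green points (4541) did not pass and had a 95% interval within 1.5-fold, and grey points (4440) fell in neither class, with Mrap2, Igha and Gdpd3 among the circled genes far from 0.

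For orientation, the same test, with the length trend left in, called 3727 of 16399 genes (22.7%) between the 12-month and 2-month controls. Between Pdgfrβ-KO and the 12-month controls it called 1539 of 16344 genes (9.42%), also with the trend left in. These comparisons share libraries with the main one, so their values are set beside it for each gene and not correlated with it. On the mouse genome GRCm38, Pdgfrb lies on chromosome 18 from 61045150 to 61085061 on the plus strand. Its normalised counts were 2536, 2367, 2349 and 2407 in the 2-month controls and 1882, 2145, 1707 and 1749 in the Pdgfrβ-KO libraries. The groups did not overlap, every knockout library lying below every young one. The log2 difference was -0.37 ± 0.10 (SE, n = 4 per group), or 1.29-fold lower, with an adjusted p of 0.0096 by limma. An exact two-sided permutation test gave 0.0286, the smallest p that 4 against 4 libraries allow. With the length trend removed the difference was -0.18 and did not pass, at an adjusted p of 0.238. The 12-month controls had 3000, 4380, 3258 and 2399. With the length trend left in, the knockout stood further from its own age group, by -0.77 (adjusted p 0.016 by limma), than from youth. Within 5 Mb of the gene 68 genes were tested, of which 14 were higher and 22 were lower in Pdgfrβ-KO. That is 52.9% called, against 45.1% of all genes tested. Csf1r and Cd74, both higher, and Iigp1, lower, are described below and are among these neighbours. What their place near the targeted gene contributes to their levels was not tested.

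The PDGF genes, Pdgfrb included, went in both directions, with 2 of 7 members higher (28.6%) and 4 lower (57.1%). Of all genes, 22.4% were higher and 22.7% lower. Pdgfra, the α receptor that marks adipose fibroblastic progenitors, had counts of 2388 to 3351 in the young mice and 4039 to 6356 in the knockout. It rose by 0.73 ± 0.15 on the log2 scale (adjusted p 0.0030). Pdgfc, a ligand of that receptor, rose from 116 to 215 in the young libraries to 283 to 395 in the knockout (log2 difference 1.11, adjusted p 9.9e-04). Pdgfrl, which encodes a PDGF receptor-like protein, fell in every knockout library. Its counts were 605, 759, 756 and 662 in youth and 116, 128, 301 and 119 in Pdgfrβ-KO, a 4.19-fold lower mean, and the 12-month controls had 128 to 185. Pdgfb fell by 0.61 (adjusted p 0.035) and Pdgfd by 0.34 (adjusted p 0.0099), while Pdgfa (-0.36, adjusted p 0.29) did not pass. The call of Pdgfb was lost when 2-month control replicate 1 or 4 or knockout replicate 1 or 3 was left out, with adjusted p between 0.0702 and 0.101.

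Il33, the alarmin that drives type 2 immune cells in fat, was higher in the old knockout than in youth. Its counts were 252, 377, 338 and 209 in the young libraries and 460, 459, 551 and 755 in the knockout ones, without overlap. The log2 difference was 0.93 ± 0.21 (SE, n = 4), the adjusted p by limma 0.0047 and the exact permutation p 0.0286. The 12-month controls, from 309 to 441, overlapped the young range and lay below the knockout, although the test between knockout and 12-month controls was not passed (adjusted p 0.0784).

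Among the 17 genes of the type 2 immunity list that could be tested, 8 were higher and 2 were lower, with a median log2 difference of 0.96. Without knockout replicate 1 or 2, or 2-month control replicate 2 or 3, 1 was lower, as with the length trend removed. Mrc1, the mannose receptor of alternatively activated macrophages and a member of the macrophage list too, rose 3.52-fold. Its 4 young libraries had 1620, 3040, 3053 and 2574, and its 4 knockout libraries 9944, 8987, 9984 and 7247. Chil3, a chitinase-like secreted protein of such macrophages, rose 4.95-fold, from 17 to 32 up to 75 to 144. Ccl11, the eosinophil attractant eotaxin, rose 2.23-fold, to 1510 to 2102, and had 1837 to 2751 in the 12-month controls. Gata3, the lineage factor of type 2 lymphocytes, fell from 486 to 566 down to 223 to 311 (log2 difference -0.91, adjusted p 2.9e-04). Il2ra, the interleukin-2 receptor α chain, did not pass (-0.33, adjusted p 0.086, and 0.00747 without knockout replicate 4). The cytokines Il13, Il5, Il4 and Il25 did not pass the filter on low values, and Il13 had 7 to 10 in youth and 8 to 13 in the knockout.

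Nearly all macrophage genes were higher, as the plot of lists shows. Of 24 macrophage genes tested, 23 were higher and 0 lower, against 22.4% higher among all genes, with a median log2 difference of 1.99. Their summed normalised counts ranged from 22891 to 32529 in the young libraries, from 44879 to 60870 in the 12-month controls and from 88713 to 148501 in the knockout. Removal of the length trend left 23 higher. Cd163, the scavenger receptor for haptoglobin and haemoglobin complexes, had 514, 833, 1038 and 938 in youth and 7806, 7686, 6433 and 6489 in Pdgfrβ-KO, an 8.55-fold difference (adjusted p 2.5e-06). Marco, a scavenger receptor for bacteria and particles, rose 11.1-fold. Cd5l, a secreted protein of tissue macrophages, rose from 16, 40, 15 and 13 to 660, 602, 770 and 603. The 12-month controls had intermediate means for these 3 genes, with 70 to 187 for Cd5l, and the knockout was higher than them in each (adjusted p between 0.000369 and 0.000825).

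The general macrophage markers followed at smaller sizes. Adgre1, a surface receptor of macrophages, rose 4.58-fold, the high-affinity IgG receptor Fcgr1 4.91-fold, the growth factor receptor Csf1r 2.92-fold and Lyve1, a hyaluronan receptor of perivascular macrophages and lymphatic vessels, 3.62-fold. Mertk, the receptor for the uptake of dying cells, was the exception, with a log2 difference of 0.07 and a 95% interval within 1.5-fold.

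Genes of lipid-associated macrophages were less uniform, with 9 of 15 higher and 1 lower. Trem2, the lipid-sensing receptor of these cells, rose 7.07-fold, from 51 to 87 in youth to 264 to 638 in the knockout, and stood at 170 to 763 in the 12-month controls. Lgals3 rose 2.95-fold and Apoe, the lipoprotein component, 2.75-fold. Gpnmb, a glycoprotein of lipid-loaded macrophages, stood near youth in the knockout. Its counts were 1384, 1348, 1396 and 1367 in the young mice, 1558, 1457, 2123 and 1596 in Pdgfrβ-KO and 3003, 5458, 4419 and 3736 in the 12-month controls. The difference between knockout and youth was 0.28 ± 0.12 (adjusted p 0.074, 0.0368 with the length trend removed and 0.0393 without knockout replicate 2), with an interval within 1.5-fold. Fabp5, a fatty acid carrier, did not pass (-0.30, adjusted p 0.24).

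**Figure D3:**
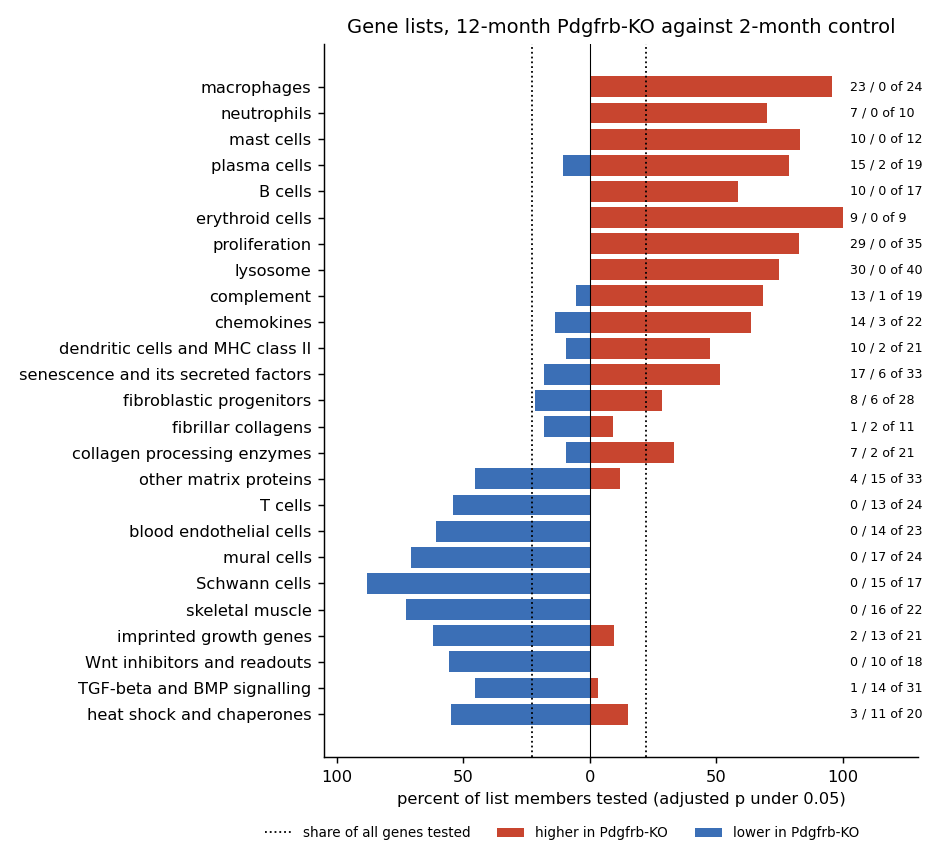
For 25 gene lists, the percentage of tested members that were higher (red, right) or lower (blue, left) in Pdgfrβ-KO than in 2-month controls at an adjusted p under 0.05, with the numbers higher and lower of the number tested at the right edge. Dotted lines give the share of all genes (22.4% higher, 22.7% lower), and macrophages (23 of 24) and Schwann cells (15 of 17 lower) lie far beyond them.

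Lysosomal genes, which serve the degradation of engulfed and recycled material, had 30 of 40 members higher and 0 lower. The cysteine proteases Ctsb and Ctss rose 2.91-fold and 3.75-fold and the asparaginyl endopeptidase Lgmn rose 3.74-fold. Ctsd, an aspartic protease, had 2542, 1667, 1973 and 2441 in youth and 12003, 10297, 7084 and 4574 in Pdgfrβ-KO. Ctsk, the collagen-degrading cathepsin, had 2466 to 3464 in youth and 2446 to 3347 in the knockout, with an interval within 1.5-fold, and 4429 to 7240 in the 12-month controls.

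Of 19 complement genes, 13 were higher and 1 was lower. C4b, a central component of the classical pathway, rose from 3284 to 5194 in youth to 15723 to 20163 in the knockout, with the 12-month controls between at 7778 to 10996. The initiating subunits C1qb and C1qc rose 4.92-fold and 6.02-fold and properdin, Cfp, 5.33-fold. C3, the component on which all pathways converge, did not pass (0.41 ± 0.24, adjusted p 0.19, and 0.0434 with the length trend removed). Of 22 chemokine genes, 14 were higher and 3 lower. The myeloid chemokines Ccl6 and Ccl9 rose 5.47-fold and 5.05-fold, the monocyte attractants Ccl7 and Ccl8 8.06-fold and 5.25-fold. Ccl7 varied widely within the knockout group, at 5073, 3078, 1967 and 1057. Cxcl14, at 2167 to 2654 in youth, 2384 to 4654 in the knockout and 4502 to 6632 in the 12-month controls, did not pass (adjusted p 0.055). The test was passed without knockout replicate 3 (adjusted p 0.00781) or 4 (0.049), in a fit of all 12 libraries (0.0475), with quantile normalization (0.0365) and with weights per library (0.0401).

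Antigen presentation genes rose in part. Of 21 dendritic cell and MHC class II genes, 10 were higher and 2 lower, the latter 0 without knockout replicate 1 or 2-month control replicate 3 or 4 and 1 without any of the other 4 except knockout replicate 4, or with the length trend removed. Cd74, the invariant chain of MHC class II, rose 2.12-fold, with 28715 to 40326 in youth and 72880 to 81592 in the knockout. H2-DMa, a peptide-exchange chain, rose 1.74-fold and the lectin receptor Cd209a 2.45-fold, and neither passed the test against the 12-month controls (adjusted p 0.957 and 0.937). Fscn1, the actin bundler of mature dendritic cells, had an interval within 1.5-fold.

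Most neutrophil genes were higher in the knockout, with 7 of 10 tested members higher and 0 lower. Csf3r, the receptor for granulocyte colony-stimulating factor, had 133, 150, 127 and 181 in youth, 126 to 214 in the 12-month controls and 576, 405, 417 and 596 in Pdgfrβ-KO. S100a9, a calcium-binding protein of granulocytes, rose 4.84-fold and the chemokine receptor Cxcr2 3.28-fold. The summed counts of the list were 439 to 534 in youth and 1033 to 1973 in the knockout, and Ly6g and Elane, both at 13 or below in all 8 libraries, were not tested.

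Mast cell genes had 10 of 12 members higher and 0 lower. The chymase gene Mcpt4 rose from 557 to 872 in youth to 2353 to 3747 in the knockout, the carboxypeptidase Cpa3 rose 3.08-fold and Fcer1a, a chain of the IgE receptor, rose 8.61-fold. All 3 were also higher in the 12-month controls than in youth. Kit, the stem cell factor receptor, had 335 to 450 in youth and 350 to 497 in the knockout, with an interval within 1.5-fold.

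Most antibody-related genes were higher. Of 19 plasma cell genes, 15 were higher and 2 lower. Igha, the constant region of IgA, had 541, 196, 298 and 386 in youth and 29285, 6979, 20916 and 29216 in Pdgfrβ-KO, a 60.8-fold difference, and 16641 to 26356 in the 12-month controls. Jchain, which joins IgA and IgM into polymers, rose 36.6-fold and reached 3669 to 6640 in the 12-month controls. Ighg1, the constant region of IgG1, behaved otherwise. It had 27, 35, 12 and 6 in youth, 35 to 239 in the 12-month controls and 1044, 429, 669 and 1517 in the knockout, a difference from youth of 5.56 ± 0.50 on the log2 scale. Igkc, the kappa light chain, rose 6.7-fold. Antibody constant genes resemble each other in sequence, so reads may have been divided among them.

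B cell genes were higher in 10 of 17 cases and lower in 0, at a median of 0.60. Cd79a, part of the B cell receptor, rose 1.65-fold, a call that was lost with the length trend removed (adjusted p 0.123). Ebf1, which fibroblastic cells also express, stayed within 1.5-fold. In contrast, 13 of 24 T cell genes were lower and 0 higher. Cd4 had 2005, 2076, 2174 and 2109 in youth and 611, 737, 1126 and 1165 in the knockout. Lef1, a transcription factor of naive T cells, fell 2.67-fold and the signalling chain Cd247 1.77-fold. Trac, the constant region of the T cell receptor α chain, did not pass (-0.20, adjusted p 0.25, and 0.0172 with the length trend removed).

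Of 14 genes of NK and innate lymphoid cells 2 were higher (14.3%) and 1 lower (7.14%), below the 22.4% and 22.7% of all genes. Nkg7, a granule protein, rose 1.61-fold, the receptor Klrb1c rose from 9 to 12 up to 24 to 36, and the protease Gzmb fell 1.52-fold (adjusted p 0.011, and 0.0548 in a fit of all 12 libraries). Because the inguinal depot contains a lymph node, 12 genes of lymph node stroma and germinal centres were examined. Of these, 4 were higher (33.3%) and 2 lower (16.7%). Cxcl13, the follicular chemokine, had 294, 335, 267 and 66 in youth and 824, 465, 664 and 1057 in the knockout. Mybl1, of germinal centre cells, fell 1.66-fold and Clca3a1, of lymphatic sinus and other endothelium, 1.87-fold. The part of the node in the immune results was not tested.

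Erythroid genes were higher in 9 of 9 cases, although the isolation included a lysis step for red cells. The globin genes Hba-a2 and Hbb-bt rose 7.66-fold and 4.13-fold, with near-identical copies that could share their reads. Slc4a1, the band 3 anion exchanger, rose from 8 to 18 up to 59 to 170 and Alas2, the first enzyme of erythroid haem synthesis, from 745 to 1094 up to 1719 to 3532. The summed level of the list was 26923 to 44947 in youth and 65084 to 200714 in the knockout, and its part in the other results was not tested.

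**Figure D4:**
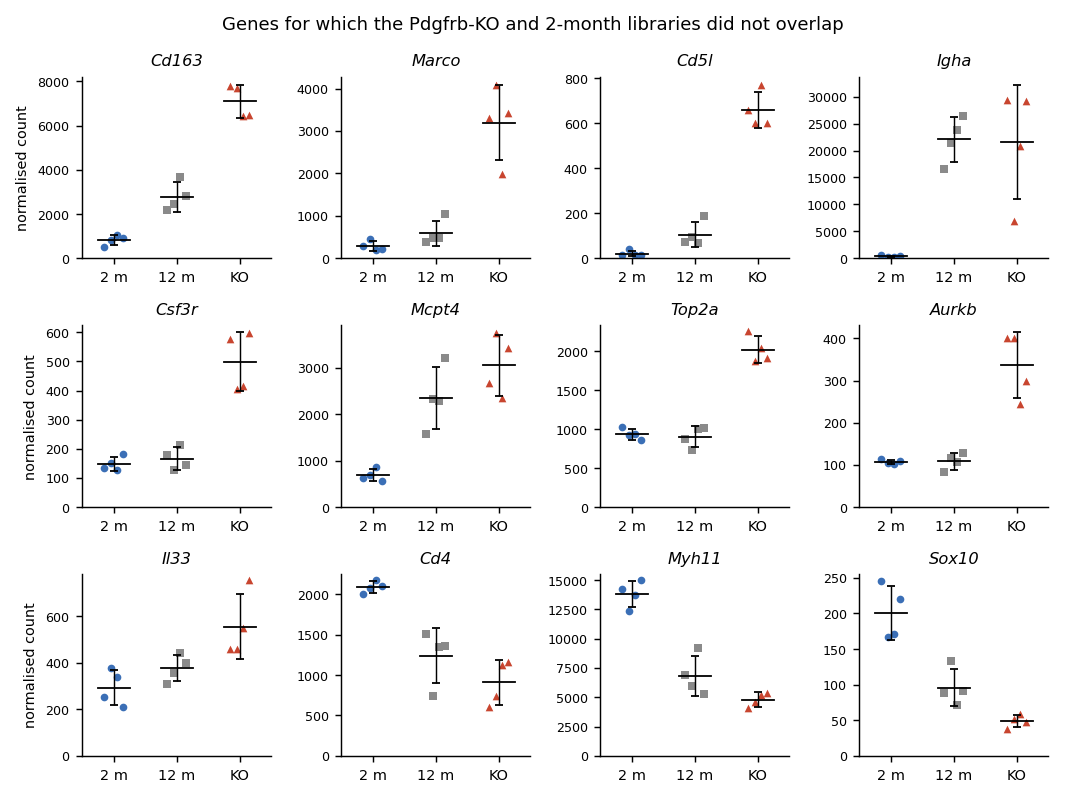
Normalised counts (y axes, from 0) of 12 genes in the 4 libraries each of 2-month control (2 m), 12-month control (12 m) and Pdgfrβ-KO (KO), with the mean as a line and the SD as the error bar. In each panel the 4 knockout libraries lie wholly above or below the 4 young ones, and the 12-month controls overlap youth for Marco, Csf3r, Top2a, Aurkb and Il33 and the knockout for Igha, Mcpt4, Cd4 and Myh11.

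Most cell division genes were higher in the old knockout than in youth. Of 35 proliferation genes, 29 were higher and 0 lower, at a median of 0.80, and 28 were higher and 1 lower with the length trend removed. The 12-month controls had 0 of these genes higher and 7 lower than youth, and the knockout exceeded the 12-month controls in 29. Top2a, the topoisomerase that untangles replicated chromosomes, had 1022, 930, 931 and 854 in youth and 2253, 1867, 2045 and 1905 in the knockout. The groups did not overlap, and the log2 difference was 1.11 ± 0.10 (adjusted p 2.3e-05). Ccnb1, the mitotic cyclin, rose from 78 to 108 up to 238 to 263, the mitotic kinase Aurkb from 101 to 113 up to 244 to 402, and the cyclin-dependent kinase Cdk1 from 80 to 125 up to 254 to 376. A pair of DNA replication genes did not follow. The helicase subunit Mcm4 did not pass (0.17, adjusted p 0.12), and the sliding clamp Pcna had a difference of -0.30 (adjusted p 0.088, and 0.00364 with the length trend removed).

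Promoter sequence was read for the genes of this list, whether or not they rose. Promoters of cell cycle genes are known to hold CCAAT boxes, so CCAAT or its reverse complement ATTGG was searched on both strands in the 200 bases before the first listed RefSeq start site (GRCm38.p6). Of the 30 proliferation genes with an entry, 25 held the motif (83.3%), against 3763 of 11621 tested genes with an entry (32.4%) and 8112 of all 27025 promoters (30.0%). At least 2 copies occurred in 16 of the 30 (53.3%) and in 1275 of the tested genes (11.0%). A match is a description of these letters and not evidence of binding. The motif is known in such promoters and the search included genes that did not rise, so its share does not bear on the rise. The stretches of Top2a (chr11:99024190-99024389), Ccnb1 (chr13:100786487-100786686), Cdk1 (chr10:69352913-69353112) and, as a member that did not rise, Pcna (chr2:132253181-132253380), all on the minus strand, are shown 5′ to 3′ with the motif in capitals.
Top2a: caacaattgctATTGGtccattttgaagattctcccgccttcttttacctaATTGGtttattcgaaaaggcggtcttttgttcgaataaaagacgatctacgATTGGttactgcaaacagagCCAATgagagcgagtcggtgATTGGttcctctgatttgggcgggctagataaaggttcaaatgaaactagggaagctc
Ccnb1: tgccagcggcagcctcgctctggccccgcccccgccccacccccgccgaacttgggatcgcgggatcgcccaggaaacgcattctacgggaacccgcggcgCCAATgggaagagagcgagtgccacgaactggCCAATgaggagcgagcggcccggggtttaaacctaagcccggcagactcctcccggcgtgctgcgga
Cdk1: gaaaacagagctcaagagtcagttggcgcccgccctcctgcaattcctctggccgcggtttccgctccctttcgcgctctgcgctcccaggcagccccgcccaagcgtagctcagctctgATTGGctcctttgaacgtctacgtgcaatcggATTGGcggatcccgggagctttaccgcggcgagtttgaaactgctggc
Pcna: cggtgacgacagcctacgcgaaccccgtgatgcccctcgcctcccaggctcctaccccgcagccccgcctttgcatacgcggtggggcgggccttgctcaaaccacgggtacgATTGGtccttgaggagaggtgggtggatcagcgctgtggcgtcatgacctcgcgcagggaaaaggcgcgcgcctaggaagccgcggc
Top2a held 5 copies, Ccnb1 and Cdk1 2 each and Pcna 1.

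Genes of senescence and its secreted factors rose in 17 of 33 cases and fell in 6, the latter 3 without 2-month control replicate 1. The list includes cytokines, chemokines and proteases that are not particular to senescence, and Ccl7 and Ccl8 were counted among the chemokines too. Cdkn2a, which encodes the cell cycle inhibitor p16 and the p53 activator Arf, had 10, 19, 6 and 6 in youth, 15 to 27 in the 12-month controls and 86, 52, 39 and 37 in the knockout. The groups of youth and knockout did not overlap, and the log2 difference was 2.34 ± 0.41 (adjusted p 0.0012). Il1b, an inflammatory cytokine, rose 3.35-fold. Igfbp5, an IGF-binding protein, fell from 14686 to 21071 down to 7379 to 9237, while the 12-month controls had 16017 to 21649.

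Of 28 genes of the p53 group 3 were higher and 9 lower (32.1%, against 22.7% of all genes), 16 did not pass and 14 were within 1.5-fold. With the length trend removed, 5 were higher and 10 lower. Trp53 itself fell by 0.49 ± 0.11 on the log2 scale (adjusted p 0.0043), the death receptor Tnfrsf10b fell 2.11-fold and the kinase Plk2 1.87-fold, while the death receptor Fas rose 2.07-fold. Btg2, an antiproliferative target, had 10471 to 12727 in youth and 10147 to 13364 in the knockout. Of 26 genes of the p38 kinase pathway, 3 were higher (11.5%) and 11 lower (42.3%, against 22.7% of all genes). Leaving out any of the 4 young libraries left 1 higher. Mapk14, which encodes p38α, was within 1.5-fold, the upstream kinase Taok2 fell 1.63-fold, the phosphatase Dusp10 fell 2.45-fold and the downstream kinase Mapkapk3 rose 1.51-fold.

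Most vessel wall genes were lower in the old knockout. Of 24 mural cell genes, 17 were lower and 0 higher, against 22.7% lower among all genes, at a median of -0.82. Myh11, the smooth muscle myosin, had 14242, 12356, 13703 and 14963 in youth and 4043, 4599, 5173 and 5396 in the knockout. Acta2, the actin whose promoter drives the Cre, fell from 7908 to 9132 down to 2961 to 3980, and Cspg4, the pericyte proteoglycan NG2, fell 2.2-fold. The 12-month controls had 5285 to 9226 for Myh11 and 3630 to 5924 for Acta2, and overlapped the knockout in both. Rgs5, a pericyte regulator of G protein signalling, did not pass (-0.20, adjusted p 0.39), with 8104 to 8866 in youth and 5441 to 10597 in the knockout.

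Blood endothelial genes were lower in 14 of 23 cases and higher in 0. Without knockout replicate 3, or 2-month control replicate 1 or 4, 9 were lower. The endothelial transcription factor Erg fell 2.59-fold, the clotting factor carrier Vwf 2.42-fold and the junction cadherin Cdh5 2.16-fold, from 12921 to 18426 down to 5402 to 8296. The fatty acid transporter Cd36, which adipocytes and macrophages share, was within 1.5-fold. Of 7 lymphatic genes 2 were higher (28.6%) and 3 lower (42.9%), against 22.4% and 22.7% of all genes. With the length trend removed 1 was higher and 1 lower. Without 2-month control replicate 4, 1 was higher. Prox1, the factor that specifies lymphatic endothelium, fell 3.04-fold and Lyve1, counted here too, rose as among the macrophage genes.

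Schwann cell genes, of the nerve sheath, were lower in 15 of 17 cases, at a median of -1.34. Sox10, the lineage factor of glia, had 245, 167, 171 and 220 in youth, 71 to 133 in the 12-month controls and 38, 52, 59 and 47 in the knockout, and the 3 groups did not overlap. S100b, which adipocytes also express, had 128 to 185 in youth and 102 to 182 in the knockout. The 12-month controls were lower than youth in 16 of the 17.

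Skeletal muscle genes were lower in 16 of 22 cases and higher in 0, while 0 of the 22 passed in either direction between the 2 control ages (15 were lower in Pdgfrβ-KO than in the 12-month controls). Myh4, a fast myosin, had 586, 392, 1440 and 878 in youth, 584 to 1588 in the 12-month controls and 60, 61, 56 and 49 in Pdgfrβ-KO. The spring protein Ttn, with a transcript of 106824 bases, fell 5.05-fold. Its log2 difference was -2.24, and -1.43 with the length trend removed. Eno3, a muscle enolase, was within 1.5-fold. Epithelial genes spread more widely within the young group. Of 8 tested, 5 were lower and 1 higher, the latter 0 without knockout replicate 1 or 2 or 2-month control replicate 2, 3 or 4. The keratins Krt8 and Krt18 and the tight junction claudin Cldn4 fell 12.6-fold, 12.6-fold and 19.4-fold. Krt8 had 264, 132, 550 and 73 in youth and 11, 24, 16 and 30 in the knockout. Krt5 and Krt14 were at 0 in all knockout libraries and at 42 or below in youth. The 12-month controls spread widely, with 3 to 319 for Krt5, 5 to 532 for Krt14 and 23 to 361 for Krt8. Muscle and skin lie next to the inguinal depot, and the summed muscle level was 4048 to 13269 in youth, 5537 to 12624 in the 12-month controls and 2056 to 4552 in the knockout. The part of neighbouring tissue in these results was not tested.

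Of 11 fibrillar collagens tested, 1 was higher, 2 were lower and 8 did not pass. The interval lay within 1.5-fold for 5 of the 11, against 31.5% of all genes, and reached beyond it for Col1a1. Leaving out any 1 library removed the call of the higher gene, that of 1 lower gene, or both. Between the control ages, 5 of 10 were lower at 12 months and 1 was higher. Col1a1, the main chain of type I collagen, had 251254, 256881, 264914 and 310221 in youth and 289034, 238996, 225625 and 162603 in the knockout. The 2 groups overlapped, and the difference of -0.27 ± 0.17 did not pass (adjusted p 0.21). The 12-month controls lay apart at 79303, 82555, 70836 and 75480, a log2 difference from youth of -1.81. Col3a1 had 293471 to 364729 in youth, 226516 to 439573 in the knockout and 150662 to 218084 in the 12-month controls, and its interval between knockout and youth was within 1.5-fold. Col1a2 was lower in the knockout by 0.38 (adjusted p 0.048), a call lost when any of the 4 young libraries or knockout replicate 2, 3 or 4 was left out, at adjusted p up to 0.111, or when the length trend was removed (adjusted p 0.353).

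Of the minor fibrillar chains, Col5a3 rose by 0.61 (adjusted p 0.042), a call lost without any of the young libraries or knockout replicate 1 or 2. Col11a1, more typical of cartilage, fell from 82 to 125 down to 6 to 22, and the 12-month controls had 13 to 19. With the length trend removed, 3 of the 11 collagens were higher and 1 lower. Of 21 genes that process collagen, 7 were higher (33.3%) and 2 lower (9.52%), against 22.4% and 22.7% of all genes. The cross-linking enzyme Loxl1 rose 1.95-fold and the procollagen peptidase Adamts2 1.7-fold, while the chaperone Serpinh1 had 12816 to 16668 in youth and 13551 to 16280 in the knockout, with an interval within 1.5-fold.

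Other matrix proteins were more often lower, in 15 of 33 cases against 4 higher, and in 11 against 7 with the length trend removed. Tnc, tenascin C of remodelling matrix, had 1201, 1526, 1160 and 1393 in youth and 225, 137, 217 and 176 in the knockout, 6.99-fold lower. Thbs1 fell 2.35-fold while its relative Thbs2 rose 5.68-fold, from 1024 to 1804 up to 6813 to 8934. Dcn, the collagen-binding decorin, was within 1.5-fold at 0.23 (adjusted p 0.15, and 0.0285 with the length trend removed), with 44875 to 58201 in the 12-month controls against 22499 to 31826 in youth. Of 19 metalloproteinases and inhibitors, 11 were higher and 5 lower. The aggrecanase Adamts4 fell 3.88-fold, Mmp19 rose 2.09-fold and the inhibitor Timp3 was within 1.5-fold.

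Of 28 genes of fibroblastic progenitors, 8 were higher (28.6%) and 6 lower (21.4%), shares near those of all genes (22.4% and 22.7%). With the length trend removed 8 were higher and 9 lower. Between the control ages 16 were higher and 2 lower. The called members named here were all on the higher side, and the 6 lower ones are not named. Anxa3, an annexin, rose 2.74-fold and Ly6a, which encodes the stem cell antigen Sca-1, 1.62-fold. Apod, a lipid carrier, rose 1.76-fold and stood higher still in the 12-month controls (4584 to 5285). Pi16, a marker of interstitial progenitors, had 5108, 10784, 9052 and 5732 in youth and 7505, 8455, 5655 and 7027 in the knockout, with a difference of -0.04 ± 0.22 and an interval within 1.5-fold. The 12-month controls had 13049 to 19454.

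A further set of genes was chosen because the interval between knockout and youth lay within 1.5-fold while the 12-month controls lay far from youth, so the pattern itself is a description. Higher in the 12-month controls was Itgax, the integrin CD11c of dendritic cells and some fat macrophages, with 219 to 264 in youth, 196 to 350 in the knockout and 438 to 943 in the 12-month controls. Pamr1, a secreted protease-like protein, had 372 to 712, 532 to 603 and 1250 to 1498 in the same order. Plxdc2, a membrane protein, had 554 to 905, 655 to 847 and 1493 to 2187. Il34, a ligand of the Csf1 receptor, had 214 to 302, 192 to 335 and 400 to 778. Prss12, Lamc3, Fez1, Hspb8 and Eya2 were likewise higher in the 12-month controls, with log2 differences between knockout and youth from 0.10 to 0.21. Ada, adenosine deaminase, was the opposite case, at 470 to 607 in youth, 489 to 592 in the knockout and 227 to 299 in the 12-month controls.

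**Figure D5:**
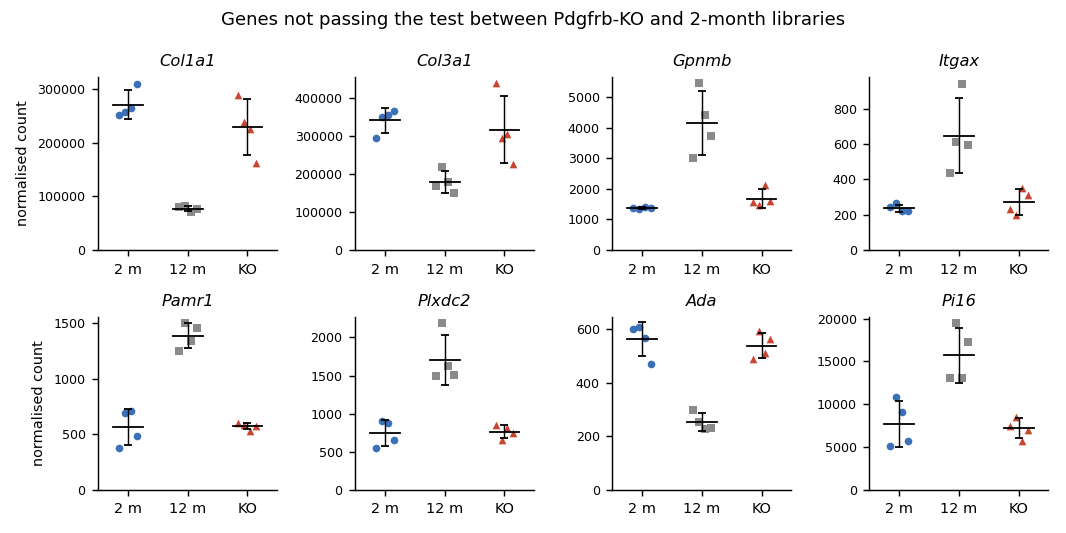
Normalised counts (y axes, from 0) of 8 genes in the 4 libraries each of 2-month control (2 m), 12-month control (12 m) and Pdgfrβ-KO (KO), with the mean as a line and the SD as the error bar. In all 8 panels the difference between knockout and youth did not pass the test, and for Col1a1 the 12-month controls lie at 70836 to 82555, below both.

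Some genes stood very near youth. The GTPase Rabl6 had 1591 to 1674 in youth and 1576 to 1712 in the knockout, the splicing factor Ik 3117 to 3438 and 3237 to 3337, and the RNA-binding protein Rnps1 1555 to 1753 and 1621 to 1679. They were chosen because their intervals lay nearest to 0 among genes with a mean of at least 1000, which makes this a description too.

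Mitochondrial and nuclear genes of respiration went in opposite directions. Of 10 genes of the mitochondrial genome, 9 were lower and 0 higher. mt-Nd4, a subunit of complex I, had 17710, 19373, 33200 and 19528 in youth and 2292, 2758, 3686 and 5151 in the knockout. mt-Cytb, of complex III, fell 4.32-fold, from 60607 to 100671 down to 12183 to 22834. mt-Nd6, the one gene listed that is encoded on the other strand, did not pass (-0.28, adjusted p 0.31, and 0.0261 with the length trend removed). The summed mitochondrial counts were 1.68% to 2.59% of a library in youth, 0.8% to 1.2% in the 12-month controls and 0.49% to 0.77% in the knockout.

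Of 46 nuclear oxidative phosphorylation genes, 36 were higher and 0 lower. These transcripts are short, with a median length of 1297 bases, and 28 were higher with the length trend removed. Sdhb, a subunit of complex II, rose 1.92-fold and Ndufa9, of complex I, 1.5-fold, while Atp5b of the ATP synthase was within 1.5-fold. Cytosolic ribosomal protein genes, at a median of 1100 bases, were higher in 55 of 74 cases and lower in 4, and higher in 31 and lower in 6 with the length trend removed. Without knockout replicate 1 or 2-month control replicate 1, 2 or 3, 2 were lower. Rpl34 rose 3.11-fold, to 7813 to 13102, and Rplp0 had 32962 to 33823 in youth and 30949 to 35356 in the knockout. Of 36 proteasome genes 22 were higher and 0 lower, and 14 higher and 2 lower with the length trend removed. Psmb1, a core subunit, rose 1.53-fold.

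Adipocyte genes in the SVF were higher in 7 of 21 cases (33.3%) and lower in 1 (4.76%), or in 4 without knockout replicate 2. Adipoq, the adipocyte hormone adiponectin, rose from 121 to 150 up to 322 to 485, and the 12-month controls had 311 to 453. The glucose transporter Slc2a4 fell 1.74-fold. Fabp4, the lipid carrier of adipocytes and capillaries, had 51647 to 69650 in youth and 53346 to 113632 in the knockout and did not pass (adjusted p 0.23). Thermogenic genes gave low values in all groups at room temperature. Of 15 tested, 2 were higher and 3 lower. The higher count was 0 without 2-month control replicate 4 and 1 without any of the others except knockout replicate 1, and the lower count was 1 without 2-month control replicate 2. Ucp1, the uncoupling protein of beige and brown fat, had 28, 11, 19 and 15 in youth and 11, 7, 0 and 5 in the knockout, with a call (adjusted p 0.043) that was lost without any of the 4 young libraries or knockout replicate 3 or 4. Cidea, a lipid droplet protein, had 11 to 23 and 1 to 8 (adjusted p 0.018, and 0.0583 without 2-month control replicate 2). Prdm16, a regulator of beige identity, fell by 0.48, which did not pass with the length trend removed (-0.09, adjusted p 0.675).

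Of 18 fatty acid synthesis genes 2 were higher (11.1%) and 6 lower (33.3%), or 4 and 5 with the length trend removed. The higher count was 0 without 2-month control replicate 2 or 3 and 1 without knockout replicate 2 or 3. The desaturase Fads2 fell 2.19-fold and the acetate-activating enzyme Acss2 2.51-fold, while Scd1, another desaturase, did not pass (0.27, adjusted p 0.24, and 0.0456 with the length trend removed). Of 25 genes of cholesterol synthesis and uptake, 2 were higher (8.0%) and 9 lower (36.0%), against 22.4% and 22.7% of all genes. The interval lay within 1.5-fold for 14 of the 25, against 31.5% of all genes.

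Interferon-induced genes were lower in 12 of 36 cases (33.3%, against 22.7% of all genes) and higher in 6 (16.7%, against 22.4%). Cxcl9, the chemokine induced by interferon γ, had 1300, 1115, 1227 and 1322 in youth and 525, 457, 333 and 442 in the knockout. Mx2, annotated as a polymorphic pseudogene, fell 2.6-fold and Iigp1, an immunity-related GTPase, 2.43-fold, while Tap1, the peptide transporter, was within 1.5-fold. The 6 higher members are not named here. Of 25 immediate early and PDGF-induced genes 11 were lower (44.0%) and 1 was higher (4.0%). The interval lay within 1.5-fold for 10, against 31.5% of all genes. The 1 higher was not called without knockout replicate 1 or 2 or 2-month control replicate 1, 2 or 3, or with the length trend removed. Of 20 heat shock and chaperone genes, 11 were lower and 3 higher. Hsph1, a cytosolic chaperone, fell 2.95-fold and Hsp90b1, a chaperone of the endoplasmic reticulum, rose 1.61-fold. Of 18 circadian genes, 9 were lower and 2 higher, the latter 1 without any of the libraries except knockout replicate 4 and 2-month control replicate 1. Npas2, a partner of Bmal1, fell 3.86-fold, Nfil3 fell 1.63-fold and Nr1d2 was within 1.5-fold.

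Growth and patterning genes were more often lower than higher. Of 21 imprinted growth genes 13 were lower and 2 higher, at a median of -0.94. The long noncoding RNA Rian fell 4.68-fold and the zinc finger gene Peg3 3.71-fold, from 902 to 1198 down to 213 to 338. Nnat, neuronatin, was an exception and rose 5.18-fold. Of 31 TGF-beta and BMP genes 14 were lower and 1 higher, and 11 lower and 4 higher with the length trend removed. The ligand Tgfb3 fell 2.69-fold and the activin subunit Inhbb 3.1-fold. Of 18 Wnt inhibitors and readouts 10 were lower and 0 higher, or 5 lower without knockout replicate 3 or 2-month control replicate 3 or 4, and 6 without knockout replicate 1. Under the replicate block, a fit with the library number as a term, 6 were lower. Sfrp2, a secreted Wnt modulator, had 5894, 6158, 5481 and 6097 in youth and 1128, 1648, 1022 and 1522 in the knockout. Axin2, a common readout of Wnt signalling, fell 2.04-fold. As a check on the sex given by the labels, the summed counts of 4 Y-linked genes were read. They were 5552 to 6537 in youth and 5114 to 6779 in the knockout. None of the 4 passed the test, at a median log2 difference of -0.11.

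Several of the largest single differences lay outside these groups. Mrap2, an accessory protein of melanocortin receptors on chromosome 9 (87144306 to 87184045), was nearly absent from the controls of both ages. It had 8, 0, 0 and 0 in youth, 1, 0, 1 and 0 in the 12-month controls and 765, 750, 524 and 566 in every knockout library. It was the only protein-coding gene at or under 10 in all young libraries and at or over 100 in all knockout ones. Irgc1, an immunity-related GTPase, had 11, 6, 4 and 3 in youth, 9 to 18 in the 12-month controls and 335, 303, 303 and 373 in the knockout. Adh7, an alcohol dehydrogenase that also oxidises retinol, rose 14.5-fold, Gstp2, a glutathione transferase with a close paralogue, 12.7-fold and Wfdc17, a secreted protein of activated macrophages, 12-fold.

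A pair of interferon-inducible genes that lie in one cluster on chromosome 1 were low only in youth. Mndal had 109 to 144 in the young libraries, 1596 to 3514 in the knockout and 2487 to 3233 in the 12-month controls, and Ifi213 had 6 to 60, 205 to 978 and 372 to 760. The members of this cluster resemble each other, so reads could be shared among them.

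Among the lower genes, Gdpd3, a lysophospholipase, had 4309, 3537, 3185 and 3693 in youth and 68, 89, 61 and 28 in the knockout, a 59.9-fold lower mean. The 12-month controls spread widely for it, at 2062, 2599, 234 and 1997. Baiap2l1, an actin-binding adaptor, and Eps8l1, related to an actin regulator, fell 19.1-fold and 19.3-fold. Adcy1, a neural adenylyl cyclase, fell 7.83-fold and Col6a4, a chain of type VI collagen, 7.09-fold. The calcium release channel Ryr2 and the potassium channel Kcna1 fell 5.08-fold and 5.58-fold. Removal of the length trend took the log2 difference of Adcy1 from -3.1 to -2.55 and that of Ryr2 from -2.5 to -1.82. That of Col6a4 went from -2.9 to -2.57 and that of Kcna1 from -2.5 to -2.44. For Baiap2l1, Col6a4 and Ryr2, the 12-month controls had 15 to 46, 20 to 29 and 34 to 67 and did not pass the test against the knockout (adjusted p 0.729, 0.284 and 0.708).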

How the data were processed

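Polyadenylated RNA was sequenced from strand-specific libraries, 1 per mouse. Per the study's methods and the submitters' processing notes, reads were trimmed with Trim Galore 0.6.0, aligned with STAR 2.7.0e to GRCm38 and counted per gene. The deposited values are scores: gene counts that the authors divided by DESeq2 1.26.0 size factors and rounded to whole numbers, so no count model was used. The 2 tables were joined by row, since the 12-month control values were equal in both (100.0%).

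Genes reaching a value of 10 in 4 or more of the 8 libraries were tested with limma 3.58.1 (R 4.3.3, trend and robust) on log2(value + 1), which understates changes of low genes, with Benjamini-Hochberg adjustment over all tested genes. Fold values are ratios of group means of the deposited values, with the length trend not removed. The script was tested on simulated data, in which fewer genes changed than passed here and both groups had the spread of the 2-month controls. Library depth was estimated from the values, and the factor of knockout replicate 4 (1.018) could be 2-fold larger.

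Named genes were those with the largest changes, up to 4 called and up to 2 not called per list, genes with intervals nearest to 0, genes near youth but apart at 12 months, and genes named by the study. The PDGF list was described in full. Members and lists were chosen with earlier results of these data known. Alternatives were pseudocount, filter, scaling, variance model, library weights, all 12 libraries, the replicate block and each library left out. Thinning to the lowest depth and removal of transcript length and GC trends were chosen after seeing the data, as was the promoter search, in which chromosome 18 was not used. Some genes are not reported here.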

Additional observations from a re-analysis of the deposited data

Results flagged for a closer look

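In 22 of 374 groups of 4 libraries examined for the named genes (5.9%), 1 library stood far from the other 3 by Dixon's 95% critical value for the gap relative to the range. Chance gives about 1 in 20 such groups, so the number is close to what chance gives.

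Among the 2-month controls, replicate 1 stood apart for Fcgr1 (72), Ctsb (10601), C1qb (1862), Nkg7 (697), Mrap2 (8), Fez1 (233) and Axin2 (663). Replicate 2 did so for Cd5l (40), Eps8l1 (956) and Acss2 (583). Replicate 3 did so for mt-Nd4 (33200) and Rplp0 (33823), and replicate 4 for Cdh5 (18426).

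Among the Pdgfrβ-KO libraries, replicate 1 stood apart for Slc4a1 (170), Il1b (2396), Mapkapk3 (1009), Cspg4 (238) and Rian (355). Replicate 2 did so for Gzmb (64) and Nnat (668), replicate 3 for Pdgfrl (301) and replicate 4 for Cxcr2 (141).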

How the results depend on the processing

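The log2 difference of Pdgfrb was -0.176 with the transcript length trend removed and -0.151 with length and GC trends removed, and neither passed. Without 1 library it ranged from -0.441 to -0.331 and that of Il33 from 0.768 to 1.057. The number of genes called ranged from 5733 to 7681 without 1 library, with 2874 to 3783 higher, 2859 to 3898 lower and 4431 to 5324 within 1.5-fold. No alternative moved these counts by more than 1.5 times, and 47.4% to 51.3% of calls were in the higher direction. Removing the length trend also gave 3 lower genes of NK and innate lymphoid cells, 4 of lymph node and 3 of adipocytes, and 4 higher of fatty acid synthesis, 5 of p53 and 0 of cholesterol and of epithelium. Same-numbered libraries correlated at 0.141, -0.275, 0.061 and -0.011 in their deviations from the group means, and 1 of 4 numbers correlated best with its own, so the numbers were not taken as pairs. The replicate block gave 6823 calls, 3360 higher and 3463 lower, with 4935 genes within 1.5-fold, Pdgfrb at -0.373 and Il33 at 0.925. It changed the calls of Col1a2 and Col5a3 among the 187 named genes. Over 21 alternatives, 168 named genes kept their side of the threshold and 19 did not, and 0 reversed. Knockout replicates 1 to 3 were the shallowest libraries, and thinning all libraries to the lowest depth gave 7022 calls.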
